A study of Bos taurus with 9 samples.

Results

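The genes described here encode mitochondrial ribosomal proteins and were selected by their symbols, as the probe sets of a bovine expression array that carry exactly 1 annotated symbol starting with MRPL or MRPS plus a digit. There were 84 such probe sets for 67 genes, of 9155 genes with 1 symbol on the array. By symbol, 43 genes belong to the large subunit and 24 to the small subunit. Genes with several probe sets were read from the brightest of them, by the 9-array mean. Messenger RNA was measured in the longissimus dorsi, the long skeletal muscle of the back, and in abdominal and subcutaneous adipose tissue of untreated 24-month-old bulls of the Yan yellow cattle breed. Each tissue had 3 arrays. The labels count 9 bulls reared alike and do not tie an array to an animal, so the p-values measure only the spread between these samples.

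Mitochondria carry their own ribosome, which translates a small set of membrane-embedded subunits of the respiratory chain and ATP synthase from mitochondrial DNA. The ribosomal RNAs come from the mitochondrial genome, whereas every protein of this ribosome is encoded in the nucleus, made in the cytosol and imported. Many of the proteins have counterparts in bacterial ribosomes and others exist only in mitochondria. Skeletal muscle is rich in mitochondria, while white adipocytes hold few.

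Values are given as the log2 of the intensity in the deposited table, and the number of arrays limits the precision. All 67 genes had a mean over 6 in every tissue, a level under which values are taken here as near background. Array medians over all probe sets lay between 5.75 and 5.92, and on average the adipose arrays stood 0.12 above the muscle arrays. Of the skeletal muscle markers, 11 of 13 were measured, with a summed intensity of 79295 to 83071 on the muscle arrays and 3288 to 6629 on the adipose arrays. Of these 11 genes 9 were lower in fat, and CKM (1.46 ± 0.20) and MYH7 (0.60 ± 0.21) were higher. The median difference of the 11 was -7.61, and whether the probe sets of CKM and MYH7 report the named genes was not tested. Of the adipocyte markers, 10 of 12 were measured, with 3920 to 8123 in muscle and 42070 to 46983 in fat. Endothelial markers were higher in fat for 7 of 8 genes, macrophage markers for 7 of 7 and fibroblast markers for 5 of 7. Over all 9155 genes, the test described below called 32% higher in fat and 29.5% lower. Of 6 brown fat markers 3 were measured. UCP1, the defining one, was near background, with means of 3.41 in muscle, 3.86 in abdominal and 3.22 in subcutaneous fat, while CIDEA was higher in fat (2.87 ± 0.28) and COX7A1 lower (-3.70 ± 0.12). The GAPDH control probe sets read RNA integrity as the intensity at the 3' end over that at the 5' end, and this quotient also moved with tissue. It was 0.94 to 1.01 in muscle and 1.21 to 1.74 in fat. For the actin control it was 0.96 to 1.04 in muscle and 2.24 to 8.17 in fat, and for the elongation factor control 0.28 to 0.35 and 0.47 to 0.65. The part of RNA quality in the results was not tested. In whole tissue, fewer cells of a type and less RNA per cell cannot be told apart.

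The first comparison asked how the mean of both adipose depots differed from muscle. The mRNAs of most of the 67 genes were lower in adipose tissue. In the limma fit over all probe sets, with a Benjamini-Hochberg adjusted p under 0.05 as the threshold, 62 of the 67 genes were lower, 2 were higher and 3 were not called. The share of all 9155 genes called lower was 29.5%, and the share called higher was 32%. The median difference of the 67 genes was -1.04 on the log2 scale, with quartiles of -1.44 and -0.74, against a median of -0.02 over all genes. Of the 67 genes, 38 were lower by more than 1 log2 unit, and 1 such unit is a 2-fold difference in intensity.

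Every adipose array lay under every muscle array for 58 of the 67 genes. Over all 9155 genes this held for 25.8%. For 2 genes every adipose array lay above every muscle array, as for 27.6% of all genes. With each array centred on its median, 64 of the 67 genes were lower, against 37.0% of all genes, with 28.5% of all genes higher, and the median of the 67 genes was -1.16. The count of lower genes lay between 58 and 63 when each array was left out in turn.

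**Figure D1:**
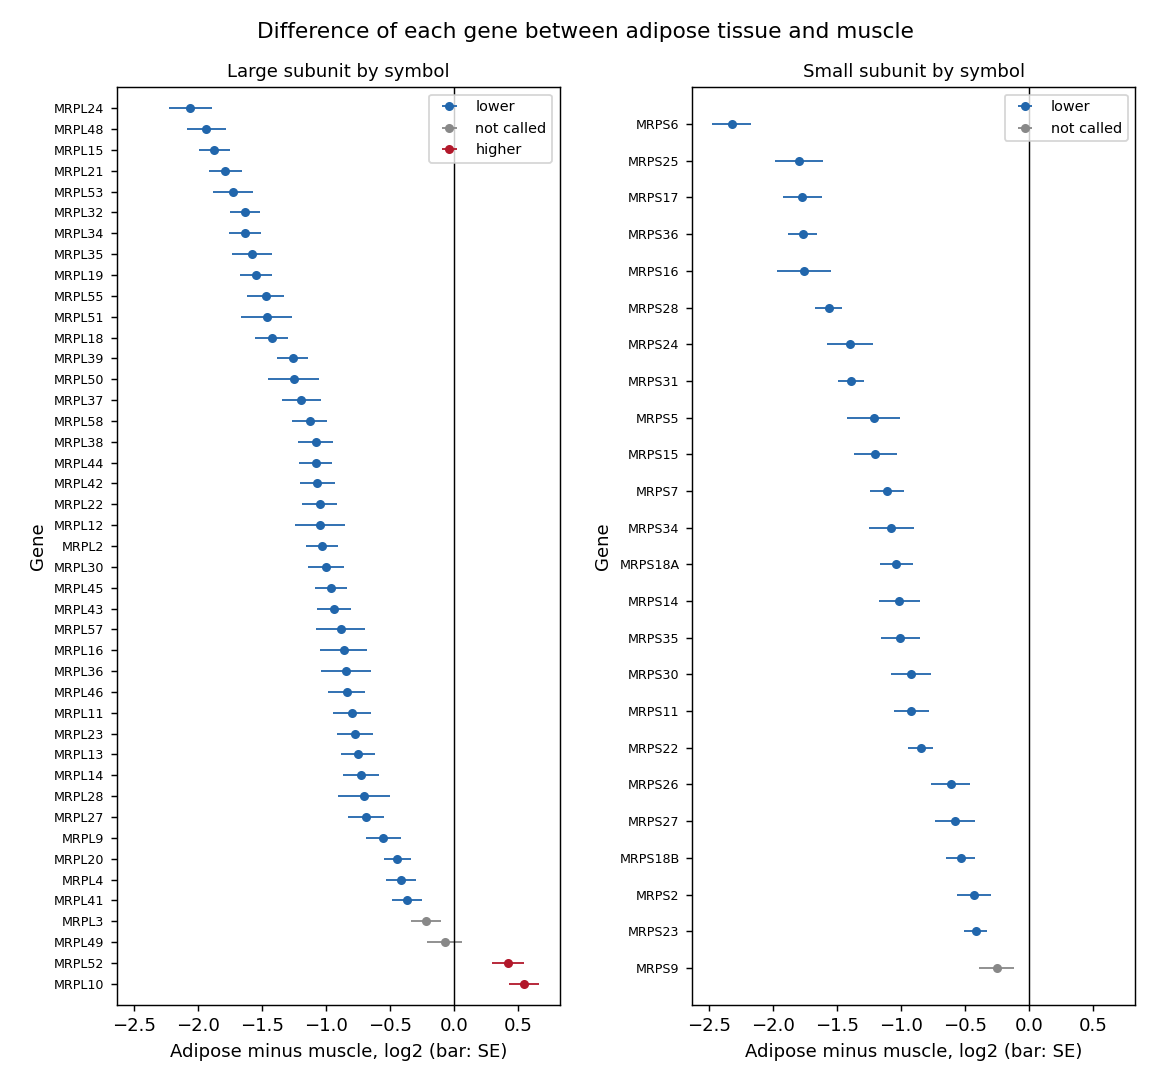
Difference between adipose tissue (mean of both depots) and muscle on the log2 scale for each gene, with its moderated standard error as a bar, for the 43 large subunit genes (left) and the 24 small subunit genes (right). Points are coloured by the call at an adjusted p under 0.05, and all but MRPL52 and MRPL10 lie below 0.

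Both subunits showed this pattern. In the large subunit 39 of 43 genes were lower and 2 higher, with a median of -1.03. In the small subunit 23 of 24 were lower and none higher, with a median of -1.06. The differences spread to a like extent within each subunit, with a standard deviation over genes of 0.57 in the large and 0.53 in the small subunit. Symbols do not always name the subunit: the MRPS30 and MRPS18A proteins sit in the large subunit of the mammalian mitochondrial ribosome, and MRPS36 is now regarded as a component of the 2-oxoglutarate dehydrogenase complex. With these 3 genes placed accordingly, 41 of 45 large subunit genes and 20 of 21 small subunit genes were lower, with medians of -1.03 and -1.08. No test of the difference between the subunits was made.

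Grouping by origin gave similar values. Of the large subunit proteins with bacterial counterparts, 24 of 26 measured genes were lower and 1 higher (median -0.93). Of those found only in mitochondria, MRPS30 included, 16 of 18 were lower and 1 higher (median -1.07). In the small subunit the counts were 11 lower of 12 with bacterial counterparts (median -1.21) and 8 lower of 8 without (median -0.93). MRPS18A, MRPS18B and MRPS36 were in none of these lists, although MRPS18A and MRPS18B descend from a bacterial protein. These lists were read against the 29.5% of all genes called lower, and no difference between them was tested.

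In the large subunit MRPL24, a protein of the region where the new chain leaves the ribosome, had the largest difference. Muscle replicates 1, 2 and 3 read 9.29, 9.32 and 8.69, the abdominal arrays 7.001, 6.79 and 7.28, and the subcutaneous arrays 6.93, 7.14 and 7.12. The muscle arrays stood well clear of the 6 adipose arrays, which overlapped between depots. The difference was -2.06 ± 0.17 (SE, 3 arrays per tissue; limma adjusted p = 6.25e-06), a 4.16-fold lower intensity in adipose tissue.

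MRPL48, which has no bacterial counterpart, read 8.73, 9.19 and 8.93 in muscle, 6.97, 7.24 and 6.82 in abdominal fat and 6.76, 7.22 and 7.09 in subcutaneous fat. MRPL15, a core protein with a bacterial counterpart, read 9.42, 9.04 and 9.27 in muscle, 7.43, 7.31 and 7.09 in abdominal fat and 7.51, 7.45 and 7.47 in subcutaneous fat. For both genes the lowest muscle array stood more than 1 log2 unit above the highest adipose array. Their differences were -1.93 ± 0.15 and -1.87 ± 0.12. MRPL21 (-1.78 ± 0.13), MRPL53 (-1.73 ± 0.16) and MRPL32 (-1.63 ± 0.12), the last a protein that must be cleaved by a mitochondrial protease before it is built in, followed in size.

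The mRNAs of 3 large subunit proteins with further known functions were also read. MRPL58, a peptidyl-tRNA hydrolase that became a structural part of the large subunit, differed by -1.13 ± 0.14. MRPL45, which lies at the exit of the ribosome and holds it to the inner membrane, differed by -0.96 ± 0.13. MRPL44, an RNase III-like protein in which mutations cause cardiomyopathy, differed by -1.08 ± 0.13. All muscle arrays lay above all adipose arrays for these genes.

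The stalk of the large subunit, which recruits translation factors, held genes that moved in opposite directions. MRPL12, the protein present in several copies on the stalk, read 8.78, 9.07 and 8.29 in muscle, 7.29, 7.82 and 7.56 in abdominal fat and 7.51, 7.78 and 8.05 in subcutaneous fat. Muscle replicate 3 came nearest to the adipose arrays without overlapping them, and the difference was -1.05 ± 0.20 (limma adjusted p = 0.00135). MRPL11, at the stalk base, differed by -0.80 ± 0.15.

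MRPL10, which anchors MRPL12 to the ribosome, went the other way. It read 8.73, 9.03 and 8.76 in muscle, 9.08, 9.43 and 9.30 in abdominal fat and 9.45, 9.50 and 9.58 in subcutaneous fat. Every adipose array was above every muscle array, the closest pair being abdominal replicate 1 and muscle replicate 2. The difference was 0.55 ± 0.12 (limma adjusted p = 0.00334), and it passed under each alternative tried, with adjusted p between 0.00225 and 0.0179.

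MRPL52, a mitochondrion-specific protein, was the other gene higher in adipose tissue. It read 8.57, 8.77 and 8.66 in muscle, 9.03, 9.32 and 9.05 in abdominal fat and 8.84, 9.26 and 9.06 in subcutaneous fat, with no overlap between muscle and fat. The difference was 0.42 ± 0.13 (limma adjusted p = 0.0174). It no longer passed when arrays were centred (adjusted p = 0.0635), under quantile normalization (0.0509) or without muscle replicate 1 (0.0677).

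Differences between muscle and fat were small for a few large subunit genes. MRPL49 read 8.99, 9.60 and 9.43 in muscle, 9.06, 9.16 and 9.08 in abdominal fat and 9.50, 9.30 and 9.51 in subcutaneous fat, so that muscle replicates 1 and 2 were the lowest and the highest of the 9 arrays. Its difference was -0.07 ± 0.14 (limma adjusted p = 0.687). MRPL3, which has a bacterial counterpart, read 9.72, 9.81 and 9.45 in muscle, 9.45, 9.74 and 9.56 in abdominal fat and 9.38, 9.28 and 9.25 in subcutaneous fat. Its difference of -0.22 ± 0.12 did not pass (adjusted p = 0.151), but did with centred arrays (0.0372) and without muscle replicate 3 (0.0412).

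MRPL36, MRPL28, MRPL4 and MRPL41 were called lower although adipose and muscle arrays overlapped. MRPL28 rested on 2 arrays: it read 8.31, 8.61 and 7.51 in muscle and 7.36 to 7.61 in fat, and its call (-0.70 ± 0.21, limma adjusted p = 0.0167) was lost without muscle replicate 1 (0.0711) or 2 (0.0785). The call of MRPL4 was lost without muscle replicate 2 (0.0676), and that of MRPL41 without muscle replicate 1 (0.0523) or 2 (0.0923).

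**Figure D2:**
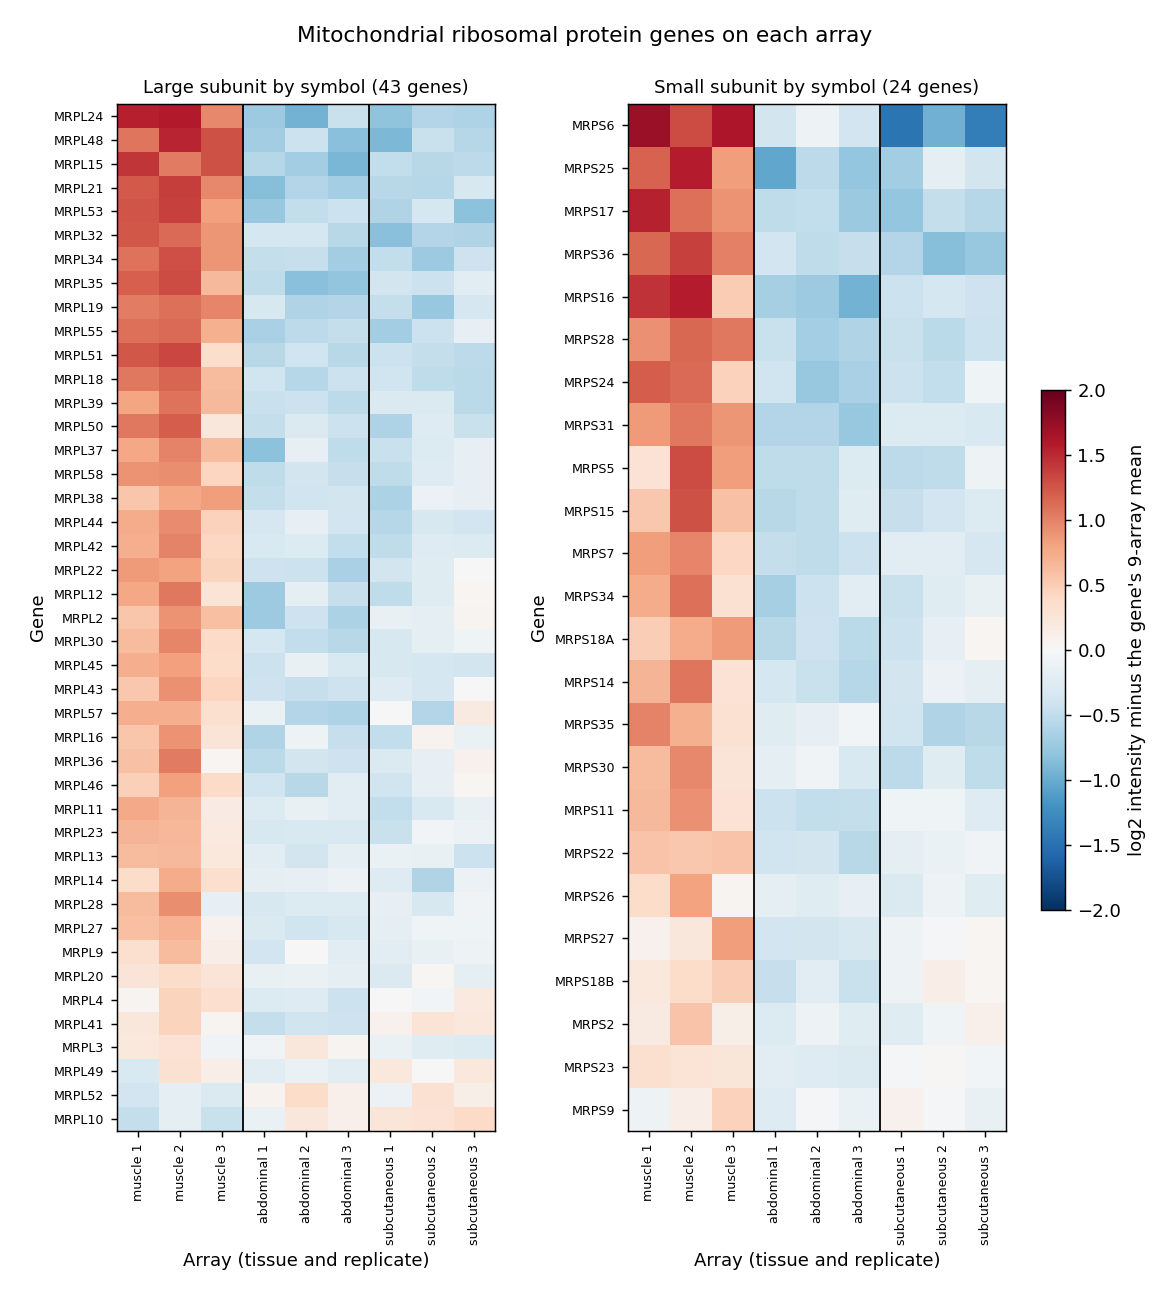
Log2 intensity of each gene on each of the 9 arrays, minus the gene's mean over the 9 arrays, for the large (left) and small subunit (right), with genes ordered by the difference between adipose tissue and muscle. Nearly all genes are above their mean on the 3 muscle arrays, least so on muscle replicate 3, and MRPS6 has the widest step between the abdominal and subcutaneous arrays.

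In the small subunit MRPS6, whose bacterial counterpart lies on the platform of the small subunit, had the largest difference of all 67 genes. It read 11.64, 11.22 and 11.53 in muscle, 9.55, 9.82 and 9.53 in abdominal fat and 8.45, 8.96 and 8.53 in subcutaneous fat. The 3 tissues did not overlap, and the order was muscle, abdominal, subcutaneous. The difference between adipose tissue and muscle was -2.32 ± 0.15 (limma adjusted p = 1.52e-06), which is a 5-fold lower intensity.

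MRPS25 read 8.52, 8.91 and 8.19 in muscle, 6.30, 6.81 and 6.57 in abdominal fat and 6.65, 7.15 and 6.97 in subcutaneous fat. MRPS16, one of the first proteins of this ribosome linked to fatal mitochondrial disease in infants, read 10.40, 10.53 and 9.46 in muscle, 8.30, 8.23 and 8.01 in abdominal fat and 8.52, 8.61 and 8.53 in subcutaneous fat. Muscle and fat were separate for both genes, and muscle replicate 3 was the lowest muscle array for both. The differences were -1.80 ± 0.19 and -1.76 ± 0.21. MRPS17 (-1.77 ± 0.15) and MRPS28 (-1.57 ± 0.11), both with bacterial counterparts, were lower to a similar extent.

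MRPS36 behaved like the ribosomal genes in size, although its product works with a dehydrogenase of the citrate cycle. It read 11.10, 11.32 and 10.96 in muscle, 9.57, 9.44 and 9.49 in abdominal fat and 9.37, 9.09 and 9.19 in subcutaneous fat, a difference of -1.77 ± 0.12. MRPS22, another gene in which mutations cause mitochondrial disease, differed by -0.85 ± 0.10, with muscle values of 8.75, 8.72 and 8.75. Those values varied less than the muscle values of most of the 67 genes, whose median standard deviation was 0.25 in muscle, 0.11 in abdominal and 0.14 in subcutaneous fat.

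MRPS18A and MRPS18B descend from the same bacterial protein and occupy different places on the mammalian ribosome. They differed by -1.04 ± 0.13 and -0.54 ± 0.11. MRPS30 differed by -0.93 ± 0.16. MRPS9 was the only small subunit gene not called: it read 7.05, 7.29 and 7.62 in muscle, 6.90, 7.12 and 7.01 in abdominal fat and 7.24, 7.12 and 7.01 in subcutaneous fat. The tissues overlapped, and the difference of -0.25 ± 0.14 (limma adjusted p = 0.146) passed with centred arrays (0.0369), with quantile normalization (0.00816) and without muscle replicate 1 (0.0461). MRPS2 was called (-0.43 ± 0.13), and its call was lost without muscle replicate 2 (0.09).

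The muscle arrays differed among themselves in a shared way. Muscle replicate 2 was the highest of the 3 muscle arrays for 51 of the 67 genes, and muscle replicate 3 was the lowest for 48. The median deviation of the 67 genes from their own 9-array mean was 0.72, 0.95 and 0.42 on muscle replicates 1, 2 and 3, and lay between -0.425 and -0.171 on the adipose arrays. The adipocyte markers had a mean log2 of 7.96, 7.17 and 8.09 on the same muscle arrays, the fibroblast markers 10.18, 9.63 and 10.40, and the macrophage markers 7.80, 6.79 and 7.22. These 3 lists were lowest on muscle replicate 2, where the ribosomal genes were highest. The skeletal muscle markers had 12.36, 12.43 and 12.41, and the endothelial markers 6.17, 6.33 and 6.39. The part of RNA from other cell types in this order was not tested. Without muscle replicate 3 the median difference between adipose tissue and muscle was -1.18, and without muscle replicate 2 it was -0.92.

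**Figure D3:**
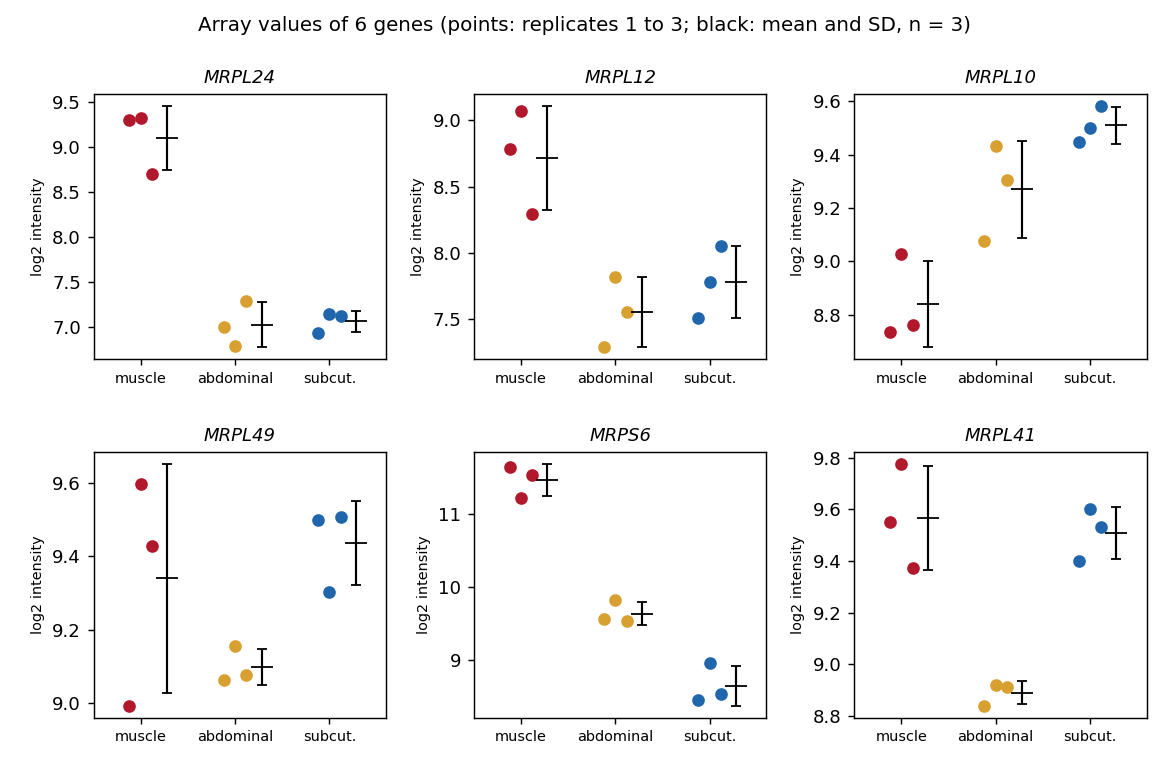
Log2 intensity of 6 genes on each array, with replicates 1 to 3 from left to right in each tissue and the mean and SD (n = 3) in black beside them. The vertical axes differ in range and do not start at 0. MRPL24, MRPL12 and MRPS6 are lower in both fat depots than in muscle, MRPL10 is higher in both, MRPL41 has its lowest values in abdominal fat, and the muscle values of MRPL49 span those of both depots.

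Each depot was also set against muscle by itself. The comparisons share the muscle arrays, so their values are given side by side. In abdominal fat 62 genes were lower and 2 higher, MRPL10 and MRPL52, where 27.1% of all genes were called lower and 29.0% higher. In subcutaneous fat 57 were lower and 1 higher, MRPL10, where 25.9% and 30.4% of all genes were. The medians were -1.13 in abdominal and -0.98 in subcutaneous fat. With centred arrays, with quantile normalization and without muscle replicate 1 or abdominal replicate 2 no gene was higher in abdominal fat, and 1 was without muscle replicate 3 or abdominal replicate 3. Without subcutaneous replicate 1, 2 genes were higher in subcutaneous fat.

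By subunit, 39 large and 23 small subunit genes were lower in abdominal fat, and 37 and 20 in subcutaneous fat. The 5 genes called lower in abdominal but not in subcutaneous fat were MRPL41 (-0.68 and -0.06), MRPL4 (-0.60 and -0.23), MRPS18B (-0.74 and -0.33), MRPS2 and MRPS27, and none of them passed the test between the depots.

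Between the depots 1 gene of this ribosome passed the test, MRPS6, at 0.99 ± 0.17 higher in abdominal than in subcutaneous fat (limma adjusted p = 0.0336), where 0.808% of all genes were called higher and 0.688% lower. Its 3 abdominal values, 9.55, 9.82 and 9.53, all lay above the highest subcutaneous value of 8.96. The direction was the same in each alternative, with differences between 0.89 and 1.15. Among the fits that left out 1 array, it did not pass without muscle replicate 1 (adjusted p = 0.0511), without abdominal replicate 1 (0.0786), 2 (0.111) or 3 (0.0932), and without subcutaneous replicate 1 (0.105) or 3 (0.103).

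MRPL41 and MRPL2 had the next smallest p-values. MRPL41, a mitochondrion-specific protein of the large subunit, read 9.55, 9.78 and 9.37 in muscle, 8.84, 8.92 and 8.91 in abdominal fat and 9.40, 9.60 and 9.53 in subcutaneous fat. The subcutaneous arrays lay within the muscle range and the abdominal arrays under all others. Between the depots it differed by -0.62 ± 0.13, which did not pass (limma adjusted p = 0.0577), with adjusted p between 0.0134 and 0.177 over the alternatives. MRPL2, a protein near the catalytic centre, read 7.11, 7.43 and 7.21 in abdominal and 7.70, 7.66 and 7.90 in subcutaneous fat, and its difference of -0.50 ± 0.13 did not pass either (adjusted p = 0.133).

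The median difference between the depots was -0.12 over the 67 genes, -0.10 in the large and -0.18 in the small subunit, and -0.04 over all genes. Without subcutaneous replicate 1 it was -0.21 over the 67 genes and -0.19 in the large subunit, and without subcutaneous replicate 3 it was -0.07 in the large subunit. Of the 67 genes 50 were lower in abdominal fat (74.6%), against 56.0% of all genes, without regard to the test. All abdominal arrays lay under all subcutaneous arrays for 21 genes (31.3%; 17.9% of all genes) and above them for 5 (10.7% of all genes). Of the endothelial markers 8 of 8 were above 0 between the depots (median 0.56), as were 4026 of all 9155 genes, but 7 were not called. TEK, an endothelial receptor, was called higher in abdominal fat (1.09, limma adjusted p = 0.0293), as were 0.808% of all genes. The medians were 0.02 for adipocyte, -0.005 for macrophage and -0.18 for fibroblast markers. For skeletal muscle and brown fat markers they were -0.06 and -0.22. The part of endothelial RNA in the depot values was not tested.

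Other genes of mitochondrial translation, from lists compiled by function, were read in the same fit. Of the proteins of this ribosome whose symbols do not start with MRP, GADD45GIP1 of the large subunit was lower (-1.76 ± 0.16), as were CHCHD1 (-0.95 ± 0.14) and AURKAIP1 (-0.84 ± 0.14) of the small subunit. PTCD3 (-0.38 ± 0.14, limma adjusted p = 0.0507) and DAP3 (-0.27 ± 0.13, adjusted p = 0.113) did not pass.

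Of the translation factors 10 of 12 measured genes were lower in adipose tissue (83.3%, against 29.5% of all genes) and none higher. The median was -0.82. The largest differences were in GUF1, a GTPase related to elongation factors (-1.24 ± 0.14), and MTRFR, which rescues stalled ribosomes (-1.17 ± 0.14). OXA1L, which inserts the new proteins into the membrane, differed by 0.04 ± 0.12 (limma adjusted p = 0.796). The mean of GUF1 in fat was 5.45, near background, which limits how exact its difference is.

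Fewer genes were called among the enzymes that charge mitochondrial tRNAs, with 5 lower and none higher of 17 (29.4%; 29.5% of all genes) and a median of -0.22. The lower genes were led by GATC, a subunit of the amidotransferase that makes glutaminyl-tRNA (-2.20 ± 0.16), and NARS2, which charges the asparagine tRNA (-1.51 ± 0.12). Ribosome assembly and rRNA modification genes had 9 lower and 1 higher of 20, with a median of -0.42. Of all genes, 29.5% were called lower and 32% higher. TRUB2, a pseudouridine synthase (-2.16 ± 0.18, with a mean of 5.92 in fat), and MALSU1, which keeps immature large subunits from joining (-1.31 ± 0.17), had the largest differences. The size for TRUB2 depended on the processing, from -2.31 to -1.10 over 20 alternatives, all of which called it lower. DHX30, an RNA helicase, was higher (0.33 ± 0.12, limma adjusted p = 0.0428).

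Of the genes that copy, transcribe and process mitochondrial DNA and RNA, 9 were lower and 3 higher of 14, with a median of -0.46. These shares, 64.3% lower and 21.4% higher, stood against 29.5% and 32% of all genes. The transcription elongation factor TEFM (-2.03 ± 0.17) and the initiation factor TFB2M (-1.68 ± 0.21) were lower. The helicase SUPV3L1 (0.74 ± 0.13), the DNA polymerase subunit POLG2 (0.61 ± 0.13) and HSD17B10, which takes part in tRNA processing (0.48 ± 0.14), were higher. Mitochondrial protein import had 13 of 14 lower (92.9%, against 29.5% of all genes), with a median of -0.69. It was led by TIMM17B (-1.69 ± 0.15) and TIMM10 (-1.51 ± 0.19), parts of the inner membrane import machinery and its chaperones.

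Among 5 measured regulators of mitochondrial biogenesis, PPARGC1A, a coactivator of nuclear genes for mitochondrial proteins, was lower in adipose tissue. Its mean was 7.73 in muscle and 4.75 in fat, a difference of -2.98 ± 0.32 with the adipose values near background. MYC was higher (1.79 ± 0.16). NRF1, a transcription factor for such genes, was near background in all tissues, and its call of 0.37 ± 0.13 (limma adjusted p = 0.0371) was lost under 10 of 19 alternatives.

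A pair of gene families was read beside the mitochondrial ribosome, against the same background of 29.5% of all genes lower and 32% higher. Of 79 oxidative phosphorylation genes 71 were lower in adipose tissue and 3 higher, with a median of -1.11. Of 66 genes for proteins of the cytosolic ribosome and their paralogs 3 were lower and 9 higher, with a median of 0.08, and the lowest of them was RPL3L (-6.33), a paralog made mainly in striated muscle. No test compared the families.

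**Figure D4:**
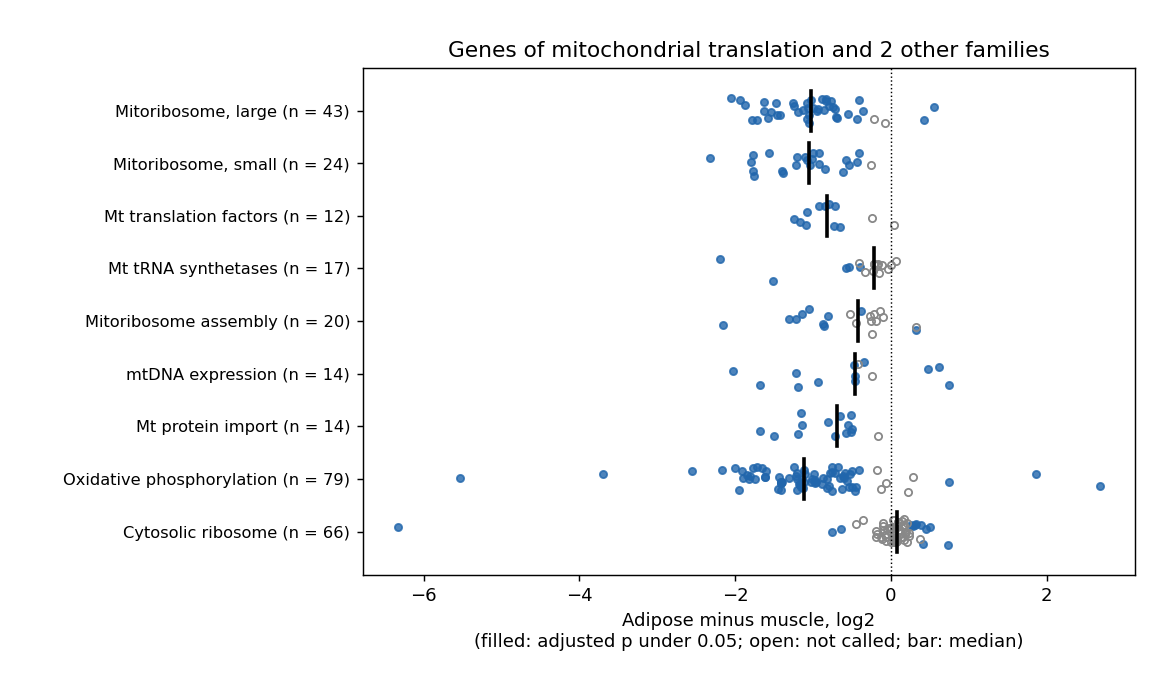
Difference between adipose tissue and muscle on the log2 scale for each gene of 9 families, with filled points for an adjusted p under 0.05, open points for genes not called and a black bar at the median. Both mitochondrial ribosomal subunits have medians near -1, close to oxidative phosphorylation, whereas most cytosolic ribosomal genes lie near 0.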

How the data were processed

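The submitters' processing notes name RMA, with no version or settings given in the sources used here. The intensities in the table the authors deposited were linear, 1 for each array and probe set, so they were put on the log2 scale and left otherwise unnormalized. Of 24128 probe sets, 112 controls were left out and 24016 tested. Names came from the array annotation, updated through the gene identifier for 13263 of 13292 probe sets with 1 symbol. All 9 arrays entered one linear model with a mean for each of the 3 tissues (limma 3.58.1, R 4.3.3, 6 residual and 3.752 prior degrees of freedom). Tests were two-sided, with Benjamini-Hochberg adjustment over 24016 probe sets and a threshold of 0.05. Standard errors (SE) are those moderated by limma.

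The members and lists were chosen with earlier results of these data known. The text names, per subunit, up to 6 lower and 4 higher called genes with the largest differences and the gene with the smallest, the 3 genes with the smallest p between depots, 13 genes listed for their roles (MRPS12 and MRPS18C were not among the 67) and 2 called genes per pathway list. Of the regulators listed, TFAM, GABPA and ESRRA had no probe set with 1 symbol. Other genes, and the families of oxidative phosphorylation and the cytosolic ribosome, were chosen after their values were seen. Sequences and promoter motifs were not analysed here. Figures were drawn with Python 3.11.15 and matplotlib 3.10.9.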

Additional observations from a re-analysis of the deposited data

Results flagged for a closer look

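MRPS6 passed the test between the depots, which is also the test of whether its difference from muscle differs between them. It was 1.83 log2 units lower than muscle in abdominal fat and 2.82 lower in subcutaneous fat, and the difference between these, 0.99 ± 0.17, passed (limma adjusted p = 0.0336). It passed under 13 of 21 alternatives, 1 of the others being the stricter threshold of 0.01, with adjusted p between 0.0122 and 0.125 over all of them.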

How the results depend on the processing

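The counts of genes lower in adipose tissue, over all 67 genes and in each subunit, stayed within 1.5 times of the reported count for the mean of both depots and for each depot, under all 21 alternatives run for each count. Leaving out each array in turn gave 60 to 65 called genes for adipose tissue against muscle (58 to 63 lower, 1 to 2 higher), 60 to 64 for abdominal fat (0 to 2 higher), 51 to 60 for subcutaneous fat (1 to 2 higher), and 0 to 2 between the depots (0 to 1 lower, 0 to 1 higher). Whichever array was left out, 59 of 64 calls held for adipose tissue, 58 of 64 for abdominal fat and 49 of 58 for subcutaneous fat against muscle. The median difference between adipose tissue and muscle lay between -1.18 and -0.92 when each array was left out and between -1.16 and -1.02 under the other settings. The spread between replicates of the median of the 67 genes, pooled over all 3 tissues, was 0.166. The muscle arrays, which are not part of the depot difference, spread most. The median deviation of the 67 genes was 0.423 to 0.951 on them. It was -0.425 to -0.403 on the abdominal and -0.393 to -0.171 on the subcutaneous arrays. The median between the depots stayed below 0 and lay between -0.208 and -0.088, and in the large subunit between -0.187 and -0.065. Under the other settings, 58 to 65 genes were called for adipose tissue and 57 to 64 for abdominal fat against muscle. For subcutaneous fat 49 to 62 were called, with 48 to 61 lower. Only counts of higher genes and counts between the depots changed by more than 1.5 times. For adipose tissue against muscle, 1 gene was higher with centred arrays, quantile normalization or an adjusted p under 0.01. In abdominal fat 0 were higher under those 3 settings, and 1 with the replicate block or with only the arrays of the tissues compared. In subcutaneous fat 2 were higher with a filter on dim probe sets, array weights, the replicate block or averaging over each gene's probe sets. Between the depots, array weights called 3 genes (MRPS6 higher, MRPL41 and MRPL2 of the large subunit, 2 in all, lower), and the fit of the 6 adipose arrays alone and the mean of probe sets each called 2 (1 lower, large subunit). At 0.01 and with the replicate block 0 were called between the depots. The difference of MRPL49 changed sign with array weights (0.091), and leaving out each array gave -0.245 to 0.056, the sign changing without muscle replicate 2. Of 822 values for single genes, 787 kept their direction and side of the threshold. The cause of these changes was not tested.

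The replicate block was the leading number of the sample title. Arrays sharing it correlated at 0.043 to 0.362 in their deviations from the tissue means (7 pairs), other pairs at -0.324 to 0.17 (20 pairs), and the labels do not say that the number marks an animal. With the block MRPS6 differed by 1.03 between the depots (limma adjusted p = 0.125), and the median of the large subunit between the depots was -0.168. The number of arrays and the near-background level of some pathway genes limit small differences.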

Other observations

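Of the 67 genes, 14 had more than 1 probe set, with 17 further probe sets beside the brightest. Of these 11 were lower in adipose tissue, none was higher and 6 were not called. For all genes, by the brightest probe set, 29.5% were called lower, and no share over all further probe sets is given here. The 6 not called belong to MRPL14, MRPL30, MRPL39, MRPS2 and MRPS9, the last with 2. MRPL14 had tissue means of 6.16 to 6.22 and the brighter one of MRPS9 6.13 to 6.27, and the other 4 were near background in every tissue. Dim probe sets were called as well: that of MRPL46, with means of 4.44 in muscle, 3.75 in abdominal and 3.93 in subcutaneous fat, differed by -0.60 ± 0.11, and that of MRPS34, with 6.00, 5.52 and 5.69, by -0.40 ± 0.13. For MRPL39, for example, the brightest probe set differed by -1.26, a further one by -1.62, and the third, with means of 2.75 in muscle and 3.04 and 3.19 in abdominal and subcutaneous fat, by 0.36 (limma adjusted p = 0.0781). All 3 probe sets of MRPL23, a protein at the ribosome's exit, were lower, by -0.77, -0.74 and -0.79.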
